A study of Mus musculus with 6 samples.

Results

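The 9 genes described here encode transcription factors of monocyte and macrophage identity: Spi1, Cebpa, Cebpb, Maf, Irf8, Irf5, Klf2, Klf4 and Runx1. They were chosen by gene symbol, and all 9 were found among the 21399 symbols of each table. RNA was sequenced from 6 mouse libraries, 3 with WT titles and 3 with KO titles. Primary microglia of CD45.2 mice, WT or KO, underwent oxygen and glucose deprivation, a cell model of ischaemia, and were then reoxygenated together with macrophages from the peritoneum of CD45.1 mice, which both groups received. The design text names the sorted cells microglia but gives them the CD45.1 mark of the added macrophages, and each sample lists both cell types as its source. Which gene was deleted is not in the sample labels (the series title names PPARα), nor are the kind of deletion, the age of the mice or the duration of the co-culture. Separate animals or cultures are not named for the 3 libraries of a group, so the p-values reflect library-to-library spread alone, part or all of which may be technical.

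Myeloid cells acquire their identity through a small set of DNA-binding factors that work in combination. PU.1, the ETS-family protein encoded by Spi1, and the C/EBP proteins activate macrophage enhancers, RUNX1 acts before and beside them in blood cell formation, and IRF8 and IRF5 add interferon-linked and inflammatory programmes. MAF restrains proliferation and shapes resident macrophages, while KLF2 and KLF4 are zinc-finger factors that temper inflammation and, for KLF4, support monocyte formation. Several of these genes are not restricted to myeloid cells: Spi1, Irf8, Irf5, Klf2 and Runx1 are also transcribed in B cells, whereas Cebpa is not part of the B cell programme.

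The sequences just upstream of 4 members are shown because these members cover the patterns found in the libraries: Cebpa and Cebpb were higher in every library labelled KO than in any labelled WT, Irf8 was lower in each of them, and Klf2 was the most abundant. RefSeq promoter windows on GRCm38.p6, the assembly that the submitters' notes call mm10, were found for 7 of the 9 members, and Spi1 and Maf were not among them. Each sequence runs 5′ to 3′ on the plus strand and ends at the base before the annotated gene start (for Klf2 this lies upstream of the RefSeq start, which leaves 221 of 250 bases), and capitals mark matches to the motifs described next.
Cebpa, chr7:35119043-35119292: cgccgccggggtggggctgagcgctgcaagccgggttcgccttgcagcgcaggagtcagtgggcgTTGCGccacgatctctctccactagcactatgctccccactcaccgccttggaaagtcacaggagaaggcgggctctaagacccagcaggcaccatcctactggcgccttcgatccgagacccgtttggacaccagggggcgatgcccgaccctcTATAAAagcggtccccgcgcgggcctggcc
Cebpb, chr2:167688665-167688914: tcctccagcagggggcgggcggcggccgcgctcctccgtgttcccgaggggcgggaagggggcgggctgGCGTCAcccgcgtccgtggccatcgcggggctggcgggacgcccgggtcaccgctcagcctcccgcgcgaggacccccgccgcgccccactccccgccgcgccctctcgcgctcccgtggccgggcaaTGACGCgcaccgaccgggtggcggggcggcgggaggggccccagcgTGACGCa
Irf8, chr8:120736108-120736357: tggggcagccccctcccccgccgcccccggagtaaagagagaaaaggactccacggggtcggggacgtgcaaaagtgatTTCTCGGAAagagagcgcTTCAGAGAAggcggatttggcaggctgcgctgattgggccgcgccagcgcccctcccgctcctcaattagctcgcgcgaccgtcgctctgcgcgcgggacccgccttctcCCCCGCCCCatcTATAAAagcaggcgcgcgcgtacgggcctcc
Klf2, chr8:72318812-72319032: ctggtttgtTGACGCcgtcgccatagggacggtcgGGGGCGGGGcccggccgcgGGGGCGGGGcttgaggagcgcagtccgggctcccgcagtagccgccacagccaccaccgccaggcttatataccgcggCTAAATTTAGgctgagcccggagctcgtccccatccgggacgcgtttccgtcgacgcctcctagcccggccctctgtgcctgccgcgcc

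The motifs were chosen after these windows had been read, and each was searched on both strands of the 250 bases before every RefSeq start, from which distances are counted. The C/EBP core TTGCG occurred in the Cebpa window, beginning 185 bases before the start, and in 14.5% of all 32851 windows. A TATA box, TATAAA, began 30 bases before the start in Cebpa and 31 bases before it in Irf8, and 12.4% of all windows held a match. The CRE-like motif TGACGC matched in Cebpb at 181, 53 and 7 bases before the start, in Klf2 and in Klf4, and 6.12% of all windows held it. The interferon-gamma-activated motif TTCNNNGAA matched in Irf8 at 171 and 153 bases, and 7.02% of all windows held a match. The MEF2 motif, the last capitals of the Klf2 sequence, began 118 bases before the start and was found in 13 of the 32851 windows. The GC box GGGGCGGGG occurred in Irf8, Klf2 and Klf4 and in 10.4% of all windows. The PU.1 core GAGGAA was in 1 of the 9 member windows, a Runx1 window, and in 23.3% of all windows, while the RUNX core TGTGGT was in 0 member windows and in 14.0% of all windows. No matches of different motifs overlapped in the 4 sequences shown. A match describes letters and not a bound site.

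Expression is given in FPKM, a fragment count scaled by transcript length and library depth, so levels of different genes in a library can be set side by side. Each library held 34543159 to 38093111 reads, as recovered from the FPKM steps. Ppara was close to the detection limit, at 0.0124 ± 0.0145 FPKM in the libraries labelled WT and 0.0394 ± 0.0170 FPKM in those labelled KO (SD, n = 3), and was thus not lower in KO. A gene-level value does not check a partial deletion, and the groups are called by their labels throughout. B cell markers were abundant in every library, with a median of 292 to 354 FPKM over 10 genes. The summed level of the 10 core macrophage markers was 1252 to 3746 FPKM in WT compared with 4672 to 10973 FPKM in KO, so the groups did not overlap. Most of this sum was Lyz2, at 979 to 2947 FPKM in WT and 3548 to 8717 FPKM in KO. Taken singly, 8 of the 10 had all KO values above WT, beside 9.75% of all genes tested, while Cd68 and Fcgr1 overlapped. The defining microglia genes Sall1 and P2ry12 reached at most 0.152 and 1.09 FPKM, and Tmem119 averaged 0.567 and 2.27 FPKM in WT and KO. In bulk RNA, fewer cells of a type and less RNA per cell cannot be told apart.

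The 9 factors spanned a wide range of levels. Klf2 was the highest, with a mean of 225 FPKM over the 6 libraries and rank 224 among all listed genes, followed by Irf8 at 136, Spi1 at 94.0, Cebpb at 73.0, Irf5 at 27.1, Cebpa at 15.6, Runx1 at 12.8, Maf at 3.59 and Klf4 at 0.633 FPKM. Klf2 was above Irf8, Runx1 above Maf and Maf above Klf4 with ranges that did not touch. The ranges of all other neighbours in this order overlapped. Irf8 was above Spi1 in 6 of 6 libraries, whereas Spi1 was above Cebpb in 5 and Cebpa above Runx1 in 4 of 6. The order thus depended on the library for the C/EBP genes, which were among the most variable members.

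**Figure D1:**
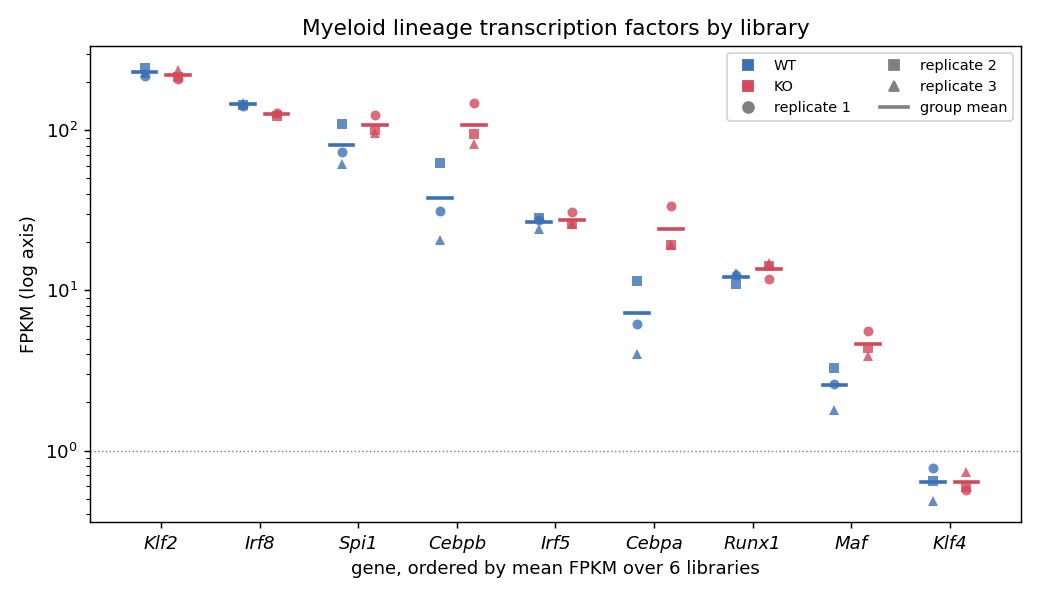
FPKM of each member in each library on a log axis, with blue for WT, red for KO, circles, squares and triangles for replicates 1, 2 and 3, and horizontal bars for group means. Cebpa, Cebpb and Maf separate the groups upwards and Irf8 slightly downwards, while Klf2 stays between 209.6 and 246 FPKM and Klf4 lies below the dotted line at 1 FPKM in every library.

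The comparison of KO with WT asked how the factors differed with the genotype of the microglia. With limma, a linear model that shares information on spread across genes, fitted to log2(FPKM + 1), 0 of 9 members passed an adjusted p of 0.05, and voom on the recovered reads also called 0. In the same fit 3 genes were called higher, 0.028% of the 10732 tested, and 0 lower. At an unadjusted limma p under 0.05, Cebpa, Cebpb and Maf were on the higher side and Irf8 on the lower side, beside 8.86% of all genes tested that were higher and 8.2% that were lower by that rule (951 and 880 genes, but 1165 and 444 with median-of-ratios scaling and 823 and 1262 with a common total that leaves out mitochondrial and ribosomal protein genes). The same 3 members had KO values all above WT, which held for 9.75% of all genes tested, and Irf8 had KO values all below WT, which held for 15.2%. The log2 fold change was above 0 for 6 of the 8 members that passed the filter and for 35.4% of all genes tested. Among these 6, Irf5 at 0.04 turned negative in 6 of 21 alternative settings. The median was 0.29 over the 8 members and -0.06 over all genes tested, the latter moving to -0.0074 with median-of-ratios scaling. Each of the 8 members moved up with that scaling as well, Spi1 to 0.49 and Runx1 to 0.21 among them. One member, Klf4, lay below the filter of a mean of 1 FPKM and was added to the fit. Without WT replicate 2, 4 members were called higher by limma, with adjusted p = 0.012 for Cebpa, 0.013 for Cebpb, 0.041 for Maf and 0.047 for Spi1, and 552 of all genes were called, 4.79% of those tested being higher. With array weights, which give less weight to libraries that deviate, Cebpa, Cebpb and Maf were called higher, beside 5.07% of all genes tested. The count of members thus depended on that library and on the weighting of libraries.

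**Figure D2:**
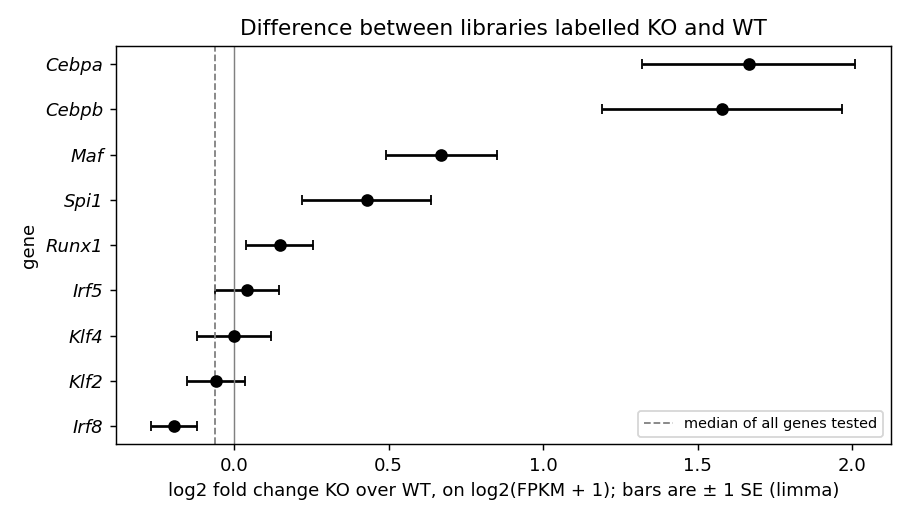
Log2 fold change of KO over WT for each member with bars of 1 SE, from limma on log2(FPKM + 1), and a dashed line at the median of all genes tested. Cebpa at 1.66 and Cebpb at 1.58 lie far to the right, Maf at 0.67 and Spi1 at 0.43 between, and the other 5 members between -0.19 and 0.15.

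Cebpa, the C/EBP family member that directs stem and progenitor cells towards the granulocyte and monocyte lineages, is annotated at chr7:35119293-35121928 in mm10 (plus strand) and has no intron in at least 1 of its 2 coding transcripts. It stood at 6.15, 11.4 and 4.02 FPKM in WT replicates 1 to 3 and at 33.7, 19.2 and 19.3 FPKM in KO replicates 1 to 3. Every KO library was above every WT library, and KO replicate 1 was the highest. The mean was 7.20 ± 3.80 FPKM in WT against 24.0 ± 8.36 FPKM in KO (SD, n = 3), 3.34 times as high. The log2 fold change was 1.66 (SE 0.35, 95% interval 0.86 to 2.47, limma adjusted p = 0.11), higher than for 99.6% of genes tested.

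Cebpb, the family member that inflammatory signals induce in macrophages, is a single-exon gene at chr2:167688915-167690418 (plus strand). It was about as far apart as Cebpa, at 31.3, 62.0 and 20.6 FPKM in WT compared with 148, 94.0 and 81.5 FPKM in KO. The groups did not overlap, and the order of the WT libraries was the same as for Cebpa. Means were 38.0 ± 21.5 and 107.9 ± 35.5 FPKM, a ratio of 2.84, with a log2 fold change of 1.58 (SE 0.39, 95% interval 0.67 to 2.48, limma adjusted p = 0.13). The opposite-strand gene Tmem189 overlaps 908 of the 1504 bases of Cebpb in the annotation, and with no strand setting stated reads in that stretch cannot be told apart.

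Maf, a basic leucine zipper factor of resident macrophages and of some T cells, is annotated at chr8:115682942-115707794 (minus strand). It was low in all libraries, at 2.59, 3.27 and 1.80 FPKM in WT compared with 5.60, 4.36 and 3.90 FPKM in KO, with 228 to 782 reads per library. The groups did not overlap. The mean was 2.55 ± 0.737 FPKM in WT against 4.62 ± 0.877 FPKM in KO, 1.81 times as high (log2 fold change 0.67, SE 0.18, 95% interval 0.25 to 1.09, limma adjusted p = 0.14).

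Spi1, the gene of PU.1, is annotated at chr2:91082390-91115756 (plus strand) and overlaps no other annotated gene. Its values were 73.2, 109 and 61.3 FPKM in WT compared with 125, 101 and 95.4 FPKM in KO. WT replicate 2 was higher than KO replicates 2 and 3, so the groups overlapped. The mean was 81.0 ± 24.6 FPKM in WT against 107 ± 15.7 FPKM in KO, a ratio of 1.32 that did not pass the test (log2 fold change 0.43, SE 0.21, 95% interval -0.06 to 0.92, limma adjusted p = 0.35). Spi1 thus differed less between the groups than the C/EBP genes in point estimate, and the difference between these fold changes was not tested.

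Irf8, which drives monocyte and dendritic cell development and is also active in B cells, is annotated at chr8:120736358-120756694 (plus strand). Its libraries stood close together, at 142, 144 and 149 FPKM in WT compared with 129, 123 and 129 FPKM in KO. All KO values were below all WT values. The mean was 145 ± 3.34 FPKM in WT against 127 ± 3.50 FPKM in KO, a ratio of 0.874 with the smallest spread of any member (2.30% of the mean in WT and 2.76% in KO). The log2 fold change was -0.19 (SE 0.07, 95% interval -0.37 to -0.02), and the limma adjusted p was 0.26. The unadjusted limma p of 0.034 moved both ways with the setting. It was 0.12 with median-of-ratios scaling and 0.098 with a replicate block, and it ran from 0.041 to 0.14 over the fits without a library, above 0.05 in 5 of 6. It was 0.0098 with no filter, 0.012 with array weights, 0.012 with quantile normalization and 0.023 with a common total. The lowest limma adjusted p over the alternatives was 0.11. B cell markers went the same way, with negative fold changes for 10 of 10 tested and a median log2 fold change of -0.22. For 6 of them all KO values were below all WT values, beside 15.2% of all genes tested. The part of these markers in the result was not tested. A long same-strand gene model, Gm20388, spans Irf8 in the annotation.

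Irf5, which carries signals from Toll-like receptors to cytokine genes, is annotated at chr6:29526625-29541871 (plus strand). It stood at 27.4, 28.4 and 24.3 FPKM in WT compared with 30.8, 26.0 and 25.8 FPKM in KO. The groups overlapped, with KO replicate 1 highest and WT replicate 3 lowest. The log2 fold change was 0.04 with a 95% interval of -0.20 to 0.28, and it was -0.030 with a common total that leaves out mitochondrial and ribosomal protein genes. The neighbour Tnpo3 on the opposite strand overlaps 1045 bases of Irf5, with levels of 21.3 ± 0.919 and 20.4 ± 0.760 FPKM in WT and KO.

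Klf2, a factor of quiescence and trafficking in lymphocytes, is annotated at chr8:72319033-72321656 (plus strand). It was high in every library, at 217, 246 and 226 FPKM in WT compared with 209.6, 215 and 238 FPKM in KO. The groups overlapped, and the log2 fold change of -0.06 had a 95% interval of -0.27 to 0.16. Its sign turned to 0.0048 with median-of-ratios scaling, so no direction can be given.

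Klf4, its relative, is annotated at chr4:55527143-55532466 (minus strand). It was at 0.773, 0.644 and 0.487 FPKM in WT compared with 0.569, 0.593 and 0.734 FPKM in KO, from 128 to 212 reads per library. The KO values lay within the range of the WT values. The mean was 0.635 ± 0.143 and 0.632 ± 0.0888 FPKM. On log2(FPKM + 1), the 95% interval of the log2 fold change was -0.28 to 0.28 around 0.00016, whose sign changed with the scaling. The added 1 is larger than every Klf4 value, so this interval understates the fold changes in FPKM that it allows. At 128 reads the counting error alone is 8.84% of the value, against a spread between libraries of 22.5% in WT and 14.0% in KO. Small differences in Klf4 could not be told from this spread.

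Runx1, a founder factor of blood cell formation that remains active in mature leukocytes, is annotated at chr16:92601466-92826149 (minus strand). It stood at 12.4, 11.004 and 12.9 FPKM in WT compared with 11.8, 14.1 and 14.7 FPKM in KO. KO replicate 1 lay among the WT libraries, so the groups overlapped. The log2 fold change was 0.15 (SE 0.11, 95% interval -0.11 to 0.40, limma adjusted p = 0.52). Annotated antisense genes overlap Runx1, Maf and Cebpa, and their reads cannot be told apart from these genes without a strand setting.

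The members fell into different patterns across the 6 libraries. Cebpa, Cebpb and Maf varied together, with Pearson's r of 0.99 for each pair among them, and Spi1 followed them with r of 0.92 to 0.95. Irf8 went the other way (r from -0.85 to -0.84 with these 3), and Klf2, Klf4 and Runx1 had r between -0.32 and 0.12 with them. These are descriptions over 6 libraries that share a source and differ in the level of macrophage RNA. The level of the core macrophage markers (the mean log2(FPKM + 1) of Adgre1, Csf1r, Cd68, Lyz2, Cd14, Fcgr1, Msr1, Mertk, C1qa and C1qb) averaged 5.65 ± 0.75 over the WT libraries and 7.27 ± 0.50 over the KO libraries (SD, n = 3). It had r = 0.999 with Cebpb, 0.995 with Maf, 0.994 with Cebpa and 0.943 with Spi1 over the 6 libraries. Within the groups, after each group's mean was subtracted, these values were 0.997, 0.983, 0.987 and 0.986. Without the libraries at either end, KO replicate 1 and WT replicate 3, they were 0.998, 0.989, 0.981 and 0.788.

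Relative to that marker level, with 1 FPKM added, the log2 level of Cebpa was -2.71 ± 0.09 in WT and -2.67 ± 0.15 in KO. That of Cebpb was -0.50 ± 0.03 and -0.55 ± 0.06. KO thus differed from WT by 0.04 for Cebpa and -0.04 for Cebpb. These distances were not computed with other added values. The log2 fold change of Cebpa itself was 1.80 with a pseudocount of 0.1 and 1.26 with a pseudocount of 5, so a constant distance was not shown. The log2 level of Spi1 relative to the markers was lower by 1.19 in KO, at 0.67 ± 0.34 in WT and -0.52 ± 0.30 in KO, and that of Maf was -3.84 ± 0.46 and -4.79 ± 0.28. A lower value in KO was not particular to these genes. The differences were -1.81 for Irf8, -1.68 for Klf2, -1.62 for Klf4, -1.58 for Irf5 and -1.47 for Runx1. The marker level itself was higher by 1.62 in KO, so a gene with equal levels in both groups falls by that amount. With the marker level as a covariate in limma, the log2 fold change was 0.25 for Cebpa, -0.028 for Cebpb and 0.0060 for Maf. It was -0.39 for Spi1 and 0.46 for Runx1, and 0 members and 0 of all genes were called. The covariate itself differed by 1.62 between the groups, so little of the group difference is left to estimate. Irf8 had r = 0.908 with the mean level of 10 B cell markers and -0.841 with the macrophage markers, but within the groups these values were 0.418 and -0.236, so they rested largely on the difference between the groups. For Irf5 the r of 0.642 with the macrophage markers turned to -0.616 without KO replicate 1 and WT replicate 3, and was 0.895 within the groups, so the relation of Irf5 to these markers depended on which libraries entered. Runx1 had r = 0.052 with the macrophage markers over the 6 libraries but -0.919 within the groups. Without KO replicate 1 and WT replicate 3 its r was 0.539, so the relation of Runx1 to these markers was not settled either.

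**Figure D3:**
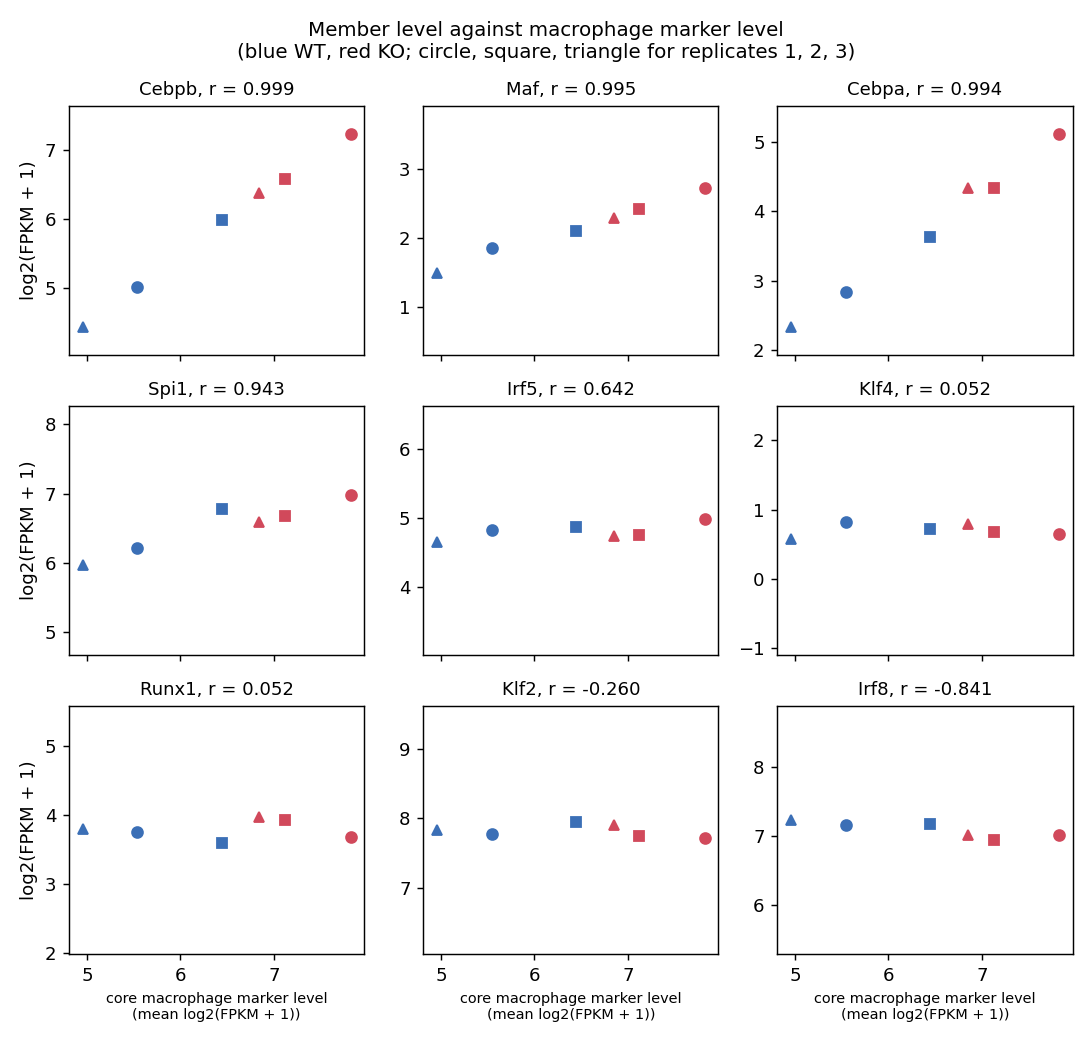
Log2(FPKM + 1) of each member against the mean level of 10 core macrophage markers, 1 point per library, with blue for WT and red for KO, each panel spanning the same height and ordered by Pearson's r. Cebpb, Maf, Cebpa and Spi1 climb from left to right, Irf5, Klf4, Runx1 and Klf2 are nearly level, and Irf8 slopes slightly downwards.

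The genes most like each member were taken as the 3 with the highest r over the 6 libraries among those tested. For Cebpa these were Efhd2, Man1c1 and Gbgt1 (r = 0.997 or above), and for Cebpb they were Cmtm3, Rtn3 and 6430548M08Rik (r = 0.998 or above). Maf was closest to Rbpms, Litaf and Prg4, the last a marker of resident peritoneal macrophages at 39.1 ± 19.1 FPKM in WT against 127 ± 55.3 FPKM in KO. Spi1 was closest to Slc66a2, Fez2 and Tagln2, Irf8 to Acad10, Zdhhc18 and Ptcd2, Irf5 to Cpt2, Ldhb and Bcl7b, Klf2 to Mrps18c, Slc27a3 and Mrpl21, Klf4 to 1700017B05Rik, Txndc11 and Extl3, and Runx1 to Znrf3, Map4k4 and Pdcl. A high r was common for some members and rarer for others: 847 genes had r above 0.9 with Cebpb, 707 with Spi1, 221 with Irf8 and 27 with Runx1. An r over 6 libraries is imprecise, and the cause of these counts was not tested.

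Ratios between paired factors were compared within each library, by two-sided exact permutation with p-values adjusted over the 7 pairs computed, which at 3 against 3 cannot give a p below 0.1. Spi1 relative to Spib, its close relative in B cells, stood at a log2 ratio of -1.40 ± 0.33 in WT and -0.72 ± 0.40 in KO (SD, n = 3, exact p = 0.2, adjusted 0.35). The groups overlapped only narrowly for this ratio, at -1.040 in KO replicate 3 and -1.038 in WT replicate 2. With a pseudocount of 5 its exact p was 0.1. Spib was the more abundant in both groups. Cebpa relative to Pax5, the factor that commits cells to the B lineage, was -3.64 ± 0.85 in WT and -1.75 ± 0.74 in KO, with groups that did not overlap (exact p = 0.1, adjusted 0.23). Irf5 relative to Irf8 was -2.40 ± 0.14 and -2.16 ± 0.13 (exact p = 0.1, adjusted 0.23). The other 3 ratios overlapped between the groups and differed by less than the SD of the WT libraries: Cebpb over Cebpa by -0.09 (exact p = 0.4), Klf4 over Klf2 by 0.06 (exact p = 0.6) and Irf8 over Irf4 by -0.04 (exact p = 1). Cebpb exceeded Cebpa by 2.21 ± 0.12 in WT and 2.12 ± 0.11 in KO with 1 FPKM added to each gene. This difference depended on the added value: it was -0.20 with a pseudocount of 0.1 (exact p = 0.1) and 0.21 with a pseudocount of 5 (exact p = 0.3). With nothing added, mean Cebpb was 5.28 times mean Cebpa in WT and 4.49 times in KO. A constant ratio of the 2 C/EBP genes was thus not shown.

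**Figure D4:**
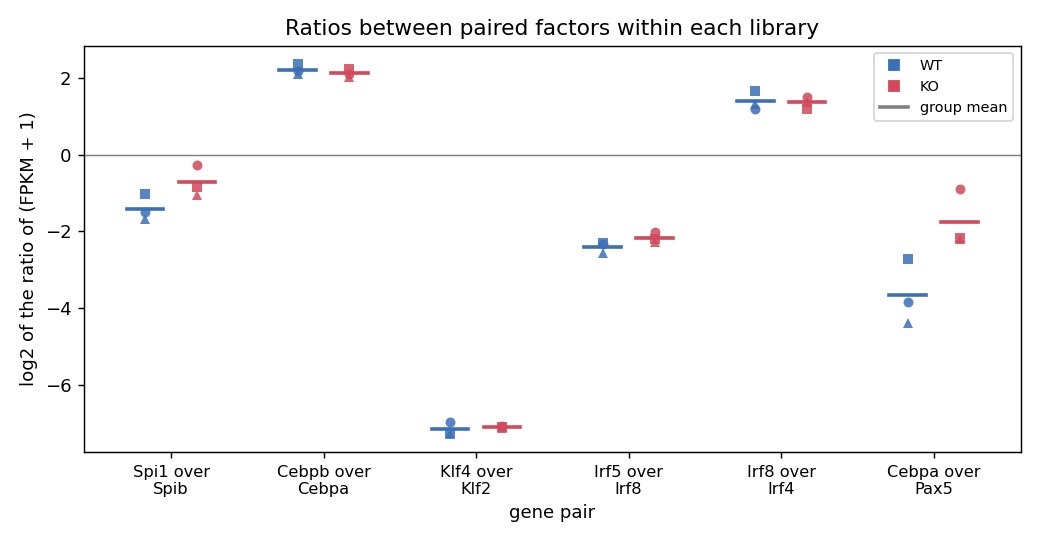
Log2 of the ratio of (FPKM + 1) between paired genes in each library, with blue for WT, red for KO and bars for group means. Cebpa over Pax5 and Irf5 over Irf8 are higher in every KO library, while the other pairs shown overlap between the groups.

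Close relatives of the members were counted next, with 0 of 24 tested genes called by limma; 11 had positive fold changes, and the median log2 fold change was -0.04 beside -0.06 for all genes tested. At an unadjusted p under 0.05, 5 were higher and 1 lower. For this list and those below, the matching shares over all genes tested were 8.86% higher and 8.2% lower. Cebpd, a C/EBP gene that inflammatory signals induce, stood at 2.89 ± 0.899 FPKM in WT against 5.35 ± 1.54 FPKM in KO (limma adjusted p = 0.19). Mafg, a small MAF partner of NRF2, was at 7.72 ± 0.410 and 10.03 ± 0.605 FPKM and Klf6 at 30.2 ± 1.63 and 36.8 ± 1.44 FPKM (limma adjusted p = 0.13 and 0.16). The granulocyte factor Cebpe was at or below 0.155 FPKM in each library.

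Other transcription factors of myeloid cells numbered 26 tested, of which 17 had positive fold changes, with a median of 0.21 and 0 called by limma. At an unadjusted p under 0.05, 11 were higher and 1 lower. Zeb2, which maintains tissue macrophage identity, stood at 11.6 ± 1.33 FPKM in WT against 18.1 ± 0.883 FPKM in KO (log2 fold change 0.61, limma adjusted p = 0.095). Gata6, the factor of resident peritoneal macrophages, was at 0.982 ± 0.631 and 3.38 ± 0.964 FPKM, Etv6 at 12.5 ± 1.03 and 16.7 ± 0.323 FPKM and Mef2a at 11.8 ± 1.03 and 15.5 ± 1.09 FPKM. The 14 factors of the B lineage went mostly the other way, with 2 positive fold changes, a median of -0.21 and 0 called (0 higher and 1 lower at an unadjusted p under 0.05). Tcf3 stood at 61.1 ± 1.86 and 51.7 ± 2.15 FPKM, Pou2af1 at 276 ± 21.9 and 235 ± 18.4 FPKM and Spib at 210.0 ± 13.3 and 177 ± 23.2 FPKM in WT and KO. In these 3 of the 14, every KO library was below every WT library, beside 15.2% of all genes tested. For Spib this rested on a near tie, with 197.2 FPKM in KO replicate 3 and 197.3 FPKM in WT replicate 3.

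Textbook target genes of the members were examined as lists, and none of their genes passed over all genes tested by limma. Of 16 PU.1 targets, 15 had positive fold changes with a median of 1.24, and 12 were higher at an unadjusted p under 0.05. Csf1r, the receptor for the growth factor CSF1, stood at 59.3 ± 32.5 FPKM in WT against 202 ± 51.6 FPKM in KO, and the integrin gene Itgam at 103 ± 38.4 and 285 ± 49.6 FPKM. All 9 C/EBP targets tested had positive fold changes (median 1.64, 7 higher at an unadjusted p under 0.05). Csf3r, the receptor for G-CSF, stood at 8.66 ± 4.29 and 27.8 ± 6.97 FPKM, and Arg1, arginase, at 283 ± 154 and 792 ± 150 FPKM. The neutrophil protease gene Elane, another C/EBP target, was at or below 0.0306 FPKM. Several of these targets are also macrophage markers, whose summed levels did not overlap between the groups, and the part of those levels in the result was not tested.

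Of 7 IRF5 and IRF8 targets tested, 6 had a fold change above 0 (median log2 value 0.41), and 2 were higher at an unadjusted p under 0.05. The cysteine protease gene Ctsc stood at 59.4 ± 10.9 and 84.9 ± 9.11 FPKM and Cst3 at 355 ± 52.0 and 522 ± 144 FPKM, while Il12a, at 4.94 ± 0.410 and 3.98 ± 0.523 FPKM, was the gene with a negative fold change (-0.26). The cytokine gene Il12b stayed at or below 0.191 FPKM. Of 5 KLF2 targets tested, 1 was higher and 3 were lower at an unadjusted p under 0.05, with a median of -0.22. The higher one was Thbd, the gene of the anticoagulant receptor thrombomodulin, at 1.31 ± 0.787 FPKM in WT against 2.74 ± 0.640 FPKM in KO (log2 fold change 0.73, limma adjusted p = 0.20). Every KO library was above every WT library for Thbd, but narrowly, with 2.20 FPKM in WT replicate 2 and 2.21 FPKM in KO replicate 2. The integrin gene Itgb7 stood at 82.6 ± 5.06 and 70.8 ± 4.65 FPKM and the sphingosine-1-phosphate receptor gene S1pr4 at 55.5 ± 4.69 and 47.1 ± 1.40 FPKM in WT and KO, with every KO library below every WT library. Over all genes tested, KO values were all above WT for 9.75% and all below WT for 15.2%. T and NK cell markers also had 0 of 9 tested fold changes above 0 and a median of -0.36, and their part in the result was not tested.

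Markers of other cells the sort could hold give the background for these levels. The 13 tested markers of resident peritoneal macrophages had 12 positive fold changes, a median of 1.70 and 1 gene called by limma, the coagulation factor gene F5 (adjusted p = 0.0053). Of 6 monocyte markers, 3 were higher and 2 lower at an unadjusted p under 0.05: F13a1 stood at 18.0 ± 8.998 and 60.9 ± 10.1 FPKM, and Plac8, which lymphocytes also express, at 186 ± 9.41 and 156 ± 7.21 FPKM. Neutrophil markers summed to 8.92 to 29.4 FPKM in WT compared with 38.1 to 61.1 FPKM in KO, with Csf3r, also expressed in macrophages, as the largest. Dendritic cell markers summed to 6.12 to 6.78 FPKM in WT compared with 6.24 to 7.92 FPKM in KO. Mast cell markers varied widely within each group, from 10.5 to 559 FPKM in WT and from 107 to 469 FPKM in KO. Of the 11 microglia markers found, 5 passed the filter. Summed levels of T and NK cell markers were 378 to 471 and 345 to 385 FPKM, those of mesothelial cells and fibroblasts 0.839 to 21.8 and 3.28 to 35.3 FPKM, and those of other glia and neurons 16.3 to 20.3 and 14.1 to 16.2 FPKM. No matched marker was at 0 in all libraries.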

How the data were processed

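Total RNA (TRIzol) went into VAHTS Universal V6 libraries, per the labels' protocols. The authors deposited 1 table of FPKM per library, on mm10 per the submitters' processing notes. Not given in the sources used here: the aligner, counter, strand setting and annotation. Groups were taken from the titles. Tests covered the 10732 genes whose mean over 6 libraries reached 1 FPKM, and Klf4, on log2(FPKM + 1) using R 4.3.3 and its package limma 3.58.1 (two-sided, variance trend on, Benjamini-Hochberg over all at 0.05), which was checked on simulated data. The added 1 understates changes of low genes.

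Whole reads were recovered from the steps of FPKM across libraries within 0.002 reads for 100% of 10732 genes, as the smallest whole numbers, so a shared multiple of a gene's 6 counts would go unseen. Intervals cover the spread between libraries, and counting errors cover counting only. Positions came from GENCODE M21, which held 17801 of the 21399 symbols. Listed symbols with no match in the tables were not analysed here, and 1 pair and some listed genes are not reported here. The members, gene lists and tests were chosen with earlier results of these data known, so no list is independent evidence. Named genes were all members, the genes most like each, the 4 smallest p of each list and the 2 most abundant markers of each cell type, the printed ones being those a result turns on. Cebpe, Elane, Il12b, Sall1, P2ry12, Tmem119, Irf7, its interferon-linked companions and Gata2 were named after their values were seen. Alternatives were other pseudocounts, filters, scalings, weights and variance settings, a replicate block, marker covariates, voom and leaving out each library. Python 3.11.15, pandas 2.3.3, numpy 2.4.6, scipy 1.17.1 and matplotlib 3.10.9 were used.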

Additional observations from a re-analysis of the deposited data

How the results depend on the processing

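The count of members called, 0, was 3 with array weights (Cebpa 1.61, Cebpb 1.61 and Maf 0.65, each past 0.05) and ran from 0 to 4 over fits without a library. The count of all genes called, 3, was 6 with a pseudocount of 5, 0 with no filter, 6 with totals rescaled without mitochondrial and ribosomal protein genes, 612 with array weights, 11 with a replicate block, 0 with either marker covariate and 5 with voom, and ran from 0 (without WT replicate 1) to 552 (without WT replicate 2), with 1 without KO replicate 1 and 1 without KO replicate 2. Log2 fold changes without a library ran from 0.25 to 0.66 for Spi1, 1.36 to 2.01 for Cebpa, 1.22 to 2.00 for Cebpb, 0.51 to 0.81 for Maf, -0.038 to 0.086 for Irf5 and -0.066 to 0.061 for Klf4. Irf5 turned negative without WT replicate 3 or KO replicate 1. Past 0.05 without WT replicate 2 were Spi1, Cebpa, Cebpb and Maf. Directions turned with the macrophage covariate for Spi1 (-0.39), Cebpb (-0.028), Irf5 (-0.25) and Klf4 (-0.025), and with the B cell covariate for Spi1 (-0.14), Irf5 (-0.30), Klf2 (0.13) and Klf4 (-0.069). Irf5 was -0.030 with totals rescaled without mitochondrial and ribosomal protein genes and -0.0099 with array weights. Klf2 was 0.0048 with median-of-ratios scaling. Klf4 was -0.00043 with a pseudocount of 5, -0.011 with totals rescaled, -0.027 with totals rescaled without mitochondrial and ribosomal protein genes, -0.15 with quantile normalization and -0.026 with array weights. Irf8 and Runx1 kept their direction in all 21 alternatives (-0.28 to -0.13 and 0.08 to 0.46). The log2 difference in the ratio of Cebpb to Cebpa was -0.20 with a pseudocount of 0.1 and 0.21 with a pseudocount of 5. That of Irf8 to Irf4 ran from -0.13 to 0.10 without a library. The cause was not tested. The replicate block changed no call of a member. Over all genes tested, same-numbered libraries showed no regular pairing: their deviations had r = -0.21, -0.38 and 0.27, and of the 6 libraries WT replicate 3 and KO replicate 3 correlated best with their own number. These r pool all genes, so they cannot settle whether the numbers pair libraries, and single genes such as Irf7 (below) were close by number. Depth limited Klf4 and Maf most.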

Other observations

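Irf7, the interferon-induced relative of Irf5 and Irf8, varied more within the groups than between them. It stood at 146, 109 and 51.2 FPKM in WT replicates 1 to 3 and at 144, 96.9 and 52.3 FPKM in KO replicates 1 to 3, so same-numbered libraries were close while the group means were 102 ± 47.7 and 97.9 ± 46.0 FPKM (SD, n = 3). Isg15, an interferon-stimulated gene looked up after this was seen, stood at 41.6, 29.2 and 12.9 FPKM in WT compared with 47.6, 28.4 and 13.5 FPKM in KO, and Usp18 at 21.2, 12.9 and 6.88 FPKM and 18.6, 15.8 and 6.05 FPKM. Ifit3 did not match by number as closely, at 52.5, 21.3 and 15.5 FPKM in WT compared with 22.3, 17.1 and 7.48 FPKM in KO, nor did Oas1a, at 26.7, 27.4 and 12.5 FPKM and 40.6, 30.6 and 19.7 FPKM. The labels do not say what a replicate number stands for, and the cause was not tested.

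Gata2, a factor of mast cells and progenitors, ranged from 0.0739 FPKM in WT replicate 1 to 4.34 FPKM in WT replicate 2, with 2.03 FPKM in WT replicate 3 and 3.90, 3.59 and 1.03 FPKM in KO. The mast cell tryptase gene Tpsb2 was lowest and highest in the same libraries, at 3.21 and 183 FPKM, and at 80.3 FPKM in WT replicate 3 and 166, 164 and 37.3 FPKM in KO. Neither gene separated the groups.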
